A study of Mus musculus with 8 samples.

Results

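The 81 genes described here bear symbols of proteins of the cytosolic ribosome. They do not cover every such protein, and Rps4l among them is annotated as a pseudogene. They were chosen by symbol: Rpl or Rps followed by digits, with an optional closing a, l or x, together with Rplp0, Rplp1, Rplp2 and Rpsa. S6 kinase genes and rows with -ps in the symbol were left out. The rule found 81 of 23282 gene rows: 46 of the large subunit, 3 of the stalk (the flexible arm of the large subunit that recruits elongation factors) and 32 of the small subunit. A mean of at least 1 CPM (a gene's count scaled to a common library total) was reached by 79 of the 81 genes, and by 13790 rows in all. Rpl10l and Rpl39l, known as testis-enriched copies of Rpl10 and Rpl39, stayed below it.

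The libraries came from liver and uterus of ovariectomized female CD-1 mice, an outbred stock. Ovaries were removed at 6 weeks of age, so that every group, controls included, lacked the main source of estrogen. After 1 week the mice were dosed by mouth for 7 days. BPA (bisphenol A, a building block of polycarbonate with weak estrogenic activity) was given at a dose of 200 mg/kg/day. The dose of KRG, Korean red ginseng, was 1.2 g/kg/day, and further groups got the 2 agents together or no agent. Each tissue has 4 libraries, 1 for each of these treatments, and the labels state neither whether animals were pooled nor whether the tissues are matched by animal. By its title, the series asks about KRG against the influence of BPA. Reads were taken near the 3′ end of polyadenylated transcripts (QuantSeq), at about 1 count per transcript, so CPM can be compared between genes without a correction for length.

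The ribosome joins a small subunit, which reads the mRNA, to a large subunit, which forms the peptide bonds. Its proteins are needed in nearly equal numbers, and their mRNAs are among the most abundant in growing and secreting cells. Most of these mRNAs begin with a C followed by a tract of pyrimidines (the 5′ terminal oligopyrimidine, or TOP, tract), through which the mTOR kinase pathway controls their translation. Ribosomal protein genes have also left many processed copies across the mouse genome, which matters for counts made from short 3′ reads.

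Library totals ran from 12372073 to 15290950 counts, of which the ribosomal RNA precursor Rn45s took 8.30% to 12.4%. Hepatocyte markers (8 genes, among them Alb and Ttr) summed to between 34623 and 38232 CPM in the livers. In the uteri they summed to 577, 77.6, 1186 and 64.9 CPM for control, BPA, KRG and the 2 agents together, and every set of 4 values below keeps this order. Uterus markers (8 genes, among them Esr1 and Pgr) summed to between 717 and 1216 CPM in the uteri and to between 52.5 and 163 CPM in the livers, where Hoxd10, Hoxa10 and Hoxa11 were at 0.

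The sequence around the start of transcription is shown for a few members, because the pyrimidine tract is the feature that these genes are known to share and that the choice by symbol did not use. The 30-base windows are from RefSeq on GRCm38.p6, 5′ to 3′ on the gene's strand, with the annotated start as base 16. Capitals mark the longest run of C and T that touches the 5 bases on either side of the start.
Rpl7a, chr2:26910792-26910821, plus strand: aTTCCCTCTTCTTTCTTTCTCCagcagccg
Rpl35, chr2:39005117-39005146, minus strand: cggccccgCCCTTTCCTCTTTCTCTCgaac
Rpl27a, chr7:109519180-109519209, plus strand: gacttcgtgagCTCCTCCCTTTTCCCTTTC
Rpl15, chr14:18270972-18271001, minus strand: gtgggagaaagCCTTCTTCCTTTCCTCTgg
Rps9, chr7:3704026-3704055, plus strand: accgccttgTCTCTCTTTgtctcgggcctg
Rps27, chr3:90213634-90213663, minus strand: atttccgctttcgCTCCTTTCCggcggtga
Rps24, chr14:24490663-24490692, plus strand: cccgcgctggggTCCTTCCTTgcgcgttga
Rps15a, chr7:118116133-118116162, minus strand: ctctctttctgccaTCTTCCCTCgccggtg
Rplp2, chr7:141447636-141447665, plus strand: tgcgtcagcgTCTTCCTTTCgccgccggac
Rps27l, chr9:66946071-66946100, plus strand: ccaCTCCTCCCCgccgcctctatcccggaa
Rpl3l, chr17:24727811-24727840, plus strand: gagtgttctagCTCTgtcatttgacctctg
The first 9 windows carry runs of 9 to 21 pyrimidines, of which the run of 20 in Rpl27a goes on past the window. Rps27l, a paralog of Rps27 known as a target of p53, has a run of 9 that ends before the start. Rpl3l, a paralog of Rpl3 known from striated muscle, has a run of 4.

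A run of at least 7 pyrimidines at the start was found in 38.9% of the 72 windows that belong to members (60 genes), against 13.5% of 32851 windows of all genes. Within 300 bases (250 before the start and 50 after), on either strand, CTCTTTC occurred in 27.8% of the members' windows and 8.16% of all windows. CCGGAAG, letters of the kind bound by ETS factors, occurred in 36.1% and 8.86%. CACGTG, the E-box letters bound by Myc among others, occurred in 11.1% and 7.15%. TATAAA, the TATA-box letters, occurred in 8.33% of members' windows and 13.6% of all windows. These are matches of letters, not measured binding.

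All 81 genes were matched to GENCODE M21. They lie on 19 chromosomes, with 4 on the X chromosome, so they share no single location. A snoRNA gene (small RNAs that guide modification of ribosomal RNA, often encoded in introns) is annotated inside 29 of them. Rps4l is annotated as a transcribed processed pseudogene, and its row is kept here because it meets the symbol rule.

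Ribosomal protein genes took 1.76% to 1.91% of all counts in the 4 livers and 8.26% to 12.3% in the 4 uteri. Summed CPM was 17572, 18140, 19114 and 18425 in liver and 123195, 92648, 113504 and 82620 in uterus. The lowest uterus lay far above the highest liver, and the tissue means (18313 ± 641 and 102992 ± 18625, SD, n = 4) differed 5.62-fold. The small subunit was 6.30-fold higher in uterus by its summed CPM, the large subunit without the stalk 5.14-fold and the stalk 4.80-fold. The livers resembled each other closely, whereas the uteri spread over a wider range.

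**Figure D1:**
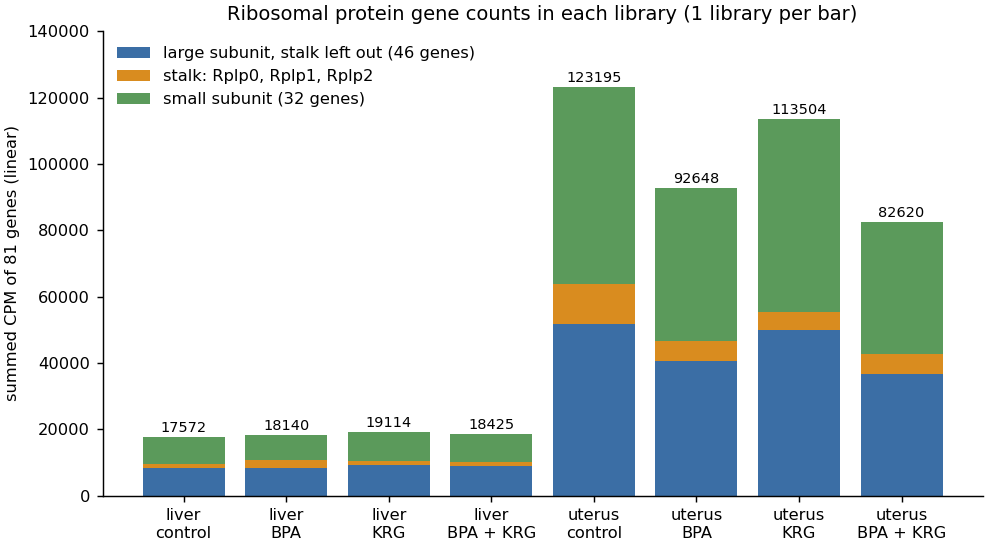
Summed CPM of the 81 ribosomal protein genes in each library (linear axis from 0, 1 library per bar), split into large subunit without the stalk, stalk and small subunit. The 4 livers stand between 17572 and 19114, and the uteri without BPA (123195 and 113504) stand above those with BPA (92648 and 82620).

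Member levels spanned several orders of magnitude. In liver the members' means ran from 0.033 to 1494 CPM with a median of 120, and 3 members exceeded 1000 CPM. In uterus they ran from 0.074 to 9509 CPM with a median of 696, and 29 exceeded 1000 CPM. The order of levels was much the same in both tissues: Spearman's rho across 79 members was 0.958, a description across genes, which share reads, copies and libraries.

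Rps14, a small subunit protein whose loss is known from the 5q- blood disorder, was the highest on average. It measured 1285, 1182, 1502 and 1533 CPM in liver and 11096, 8863, 10560 and 7516 CPM in uterus. Rps9, a protein of the decoding side of the small subunit, measured 1546, 1377, 1554 and 1499 CPM in liver and 10105, 7753, 9342 and 6457 CPM in uterus. For both genes all uteri lay above all livers, and the BPA uteri below the others. The next by mean CPM were Rps20, Rpl22, Rpl27a, Rpl13a, Rplp1, Rpl13, Rplp2 and Rpl26, with means over the 8 libraries between 1514 and 3322 CPM.

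Many members have near copies elsewhere in the genome. A 50-base stretch of the last 200 bases of a member's transcripts was shared with no other annotated gene for 16 members, with 1 to 4 genes for 20 and with 5 or more for 45. Median levels in these classes were 421, 708 and 251 CPM. Rpl29, Rpl21 and Rps2 shared such a stretch with 77, 53 and 51 genes. They had mean levels of 16.0, 42.2 and 32.8 CPM, the lowest among members apart from the paralogs Rpl3l, Rpl10l and Rpl39l. Spearman's rho between level and the number of such genes was -0.386 across 79 members, a description only. How reads with several matches were treated is not given in the sources used here, so the levels of members with many copies are uncertain. The median tissue difference was -2.45, -2.35 and -2.45 (log2, liver minus uterus) in the 3 classes.

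**Figure D2:**
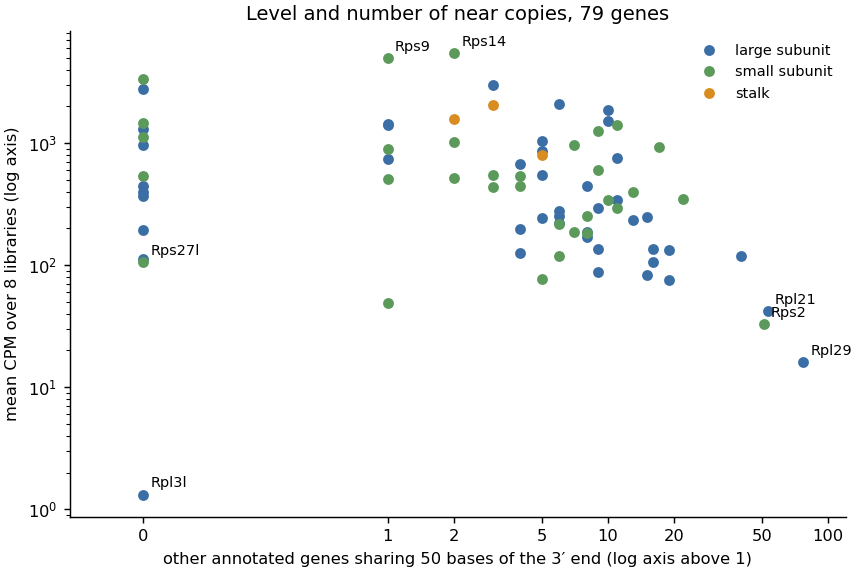
Mean CPM over the 8 libraries (log axis) of 79 ribosomal protein genes against the number of other annotated genes that share 50 bases of the 3′ end (log axis above 1), by subunit. Rpl29, Rpl21 and Rps2, at 77, 53 and 51 such genes, stand at the low end at 16.0, 42.2 and 32.8 CPM.

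Some of these copies had rows of their own, and in 3 of 9 cases the copy was counted more than its parent in all 8 libraries. Rplp2-ps1 stood at 2.49 to 3.05 times Rplp2, Rpl37rt at 2.64 to 3.15 times Rpl37, and Rps27rt at 2.01 to 2.70 times Rps27. Rpl31-ps12, Rpl34-ps1, the Rps15a copies, Rps19-ps3 and Rpl14-ps1 stayed below their parents in every library. The tissue ratio of copy and parent added together, uterus over liver, was 4.39 for Rplp2, 5.21 for Rpl37 and 8.32 for Rps27, against 4.91, 5.65 and 9.66 for the parents alone. The row of Wdr89 differed from that of Rplp2-ps1 by 4 to 44 counts in a library, out of 17607 to 97561. Wdr89 shares 50 bases with the 3′ end of Rplp2.

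Of the 79 measured members, 77 were lower in liver than in uterus and 1 was higher, each at an adjusted p under 0.05 (edgeR's quasi-likelihood test, 4 libraries against 4, adjusted over 13790 genes). Among all genes, 65.6% were lower in liver and 15.6% higher. The members' median difference was -2.43 on the log2 scale, liver minus uterus, where that of all genes was -1.13, so the members lay 1.30 below all genes. At least 4-fold lower in liver and called were 65 members, against 30.7% of all genes. All 4 livers lay below all 4 uteri for 76 members, where 62.6% of all genes did so. These p-values measure the spread between single libraries of different treatments, which may be technical in part.

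These values are by column totals. Under TMM factors, edgeR's trimmed mean scaling, which centres most genes near 0 by construction, the median of all genes was -0.18 and that of the members -1.48, and 74 members stayed lower in liver with 1 higher. Of all genes 5521 were then lower and 4444 higher, against 9047 and 2154 by column totals. Rplp1, Rpl29 and Rps4l lost the call there. In bulk tissue, fewer cells of a type and less RNA per cell cannot be told apart.

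The small subunit held the members most biased to uterus. Rps27, a zinc finger protein of the small subunit, measured 21.1, 19.8, 23.8 and 24.7 CPM in liver and 255, 163, 271 and 176 CPM in uterus, with no overlap. Its difference was -3.27 ± 0.21 (log2, SE; edgeR adjusted p = 1.38e-06). Rps15a (-3.18), Rps12 (-3.18), Rps19 (-3.11) and Rps24 (-3.10) followed, all called. Rps19 and Rps24 are known as genes mutated in Diamond-Blackfan anemia. The median was -2.58 over the 32 small subunit members and -2.41 over 44 of the large subunit, a difference between groups that was not tested.

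Rps27l was the 1 member higher in liver. It measured 129, 111, 141 and 138 CPM in liver and 95.1, 73.5, 91.2 and 71.6 CPM in uterus, and all 4 livers lay above all 4 uteri, as for 14.5% of all genes. The difference was 0.65 ± 0.14 (log2, SE; edgeR adjusted p = 2.29e-03), a 1.57-fold higher level in liver. Its paralog Rps27 was 9.66-fold higher in uterus, so this related pair stood at opposite ends of the list. No other annotated gene shared 50 bases with the 3′ end of Rps27l.

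The members least biased to uterus after Rps27l were Rps4l (-0.97 ± 0.18, SE), Rpl3l (-1.05 ± 1.27), Rpl29 (-1.20 ± 0.43) and Rps2 (-1.36 ± 0.12), on the log2 scale. Rpl3l was not called (edgeR adjusted p = 0.458). Rpl29 and Rpl3l were the 2 members whose livers and uteri overlapped. Rps4l was 29.5, 28.1, 28.2 and 46.4 CPM in liver and 65.1, 63.8, 73.3 and 56.4 CPM in uterus.

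**Figure D3:**
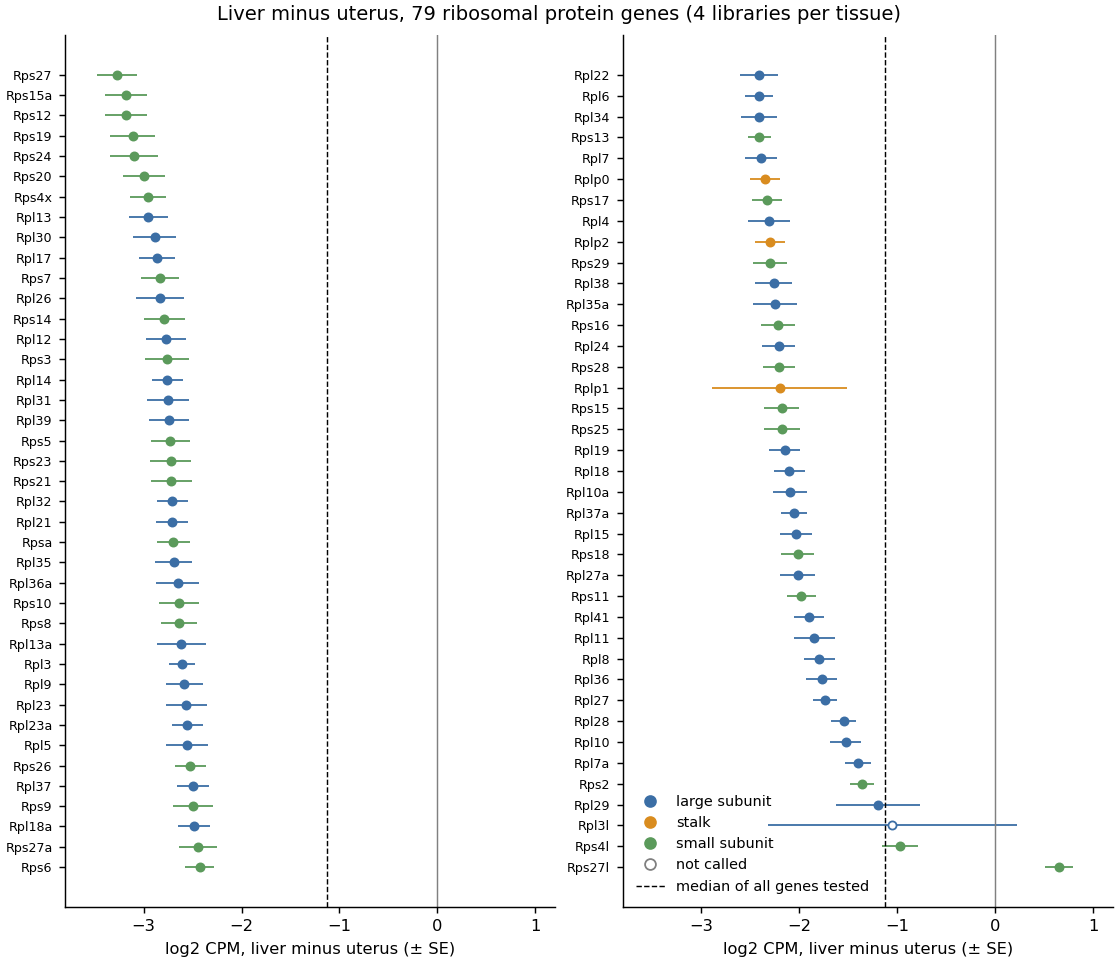
Difference between tissues in log2 CPM, liver minus uterus, for 79 ribosomal protein genes with its SE (4 libraries per tissue), coloured by subunit, with open circles for genes not called and a dashed line at the median of all genes (-1.13). Rps27l alone lies to the right of 0, and Rps27 lies farthest to the left at -3.27.

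Some ribosomal proteins have symbols that fall outside the rule. Gnb2l1, the scaffold protein also called Rack1, differed by -2.59 (log2, liver minus uterus), Rps3a1 by -2.68 and Rps27rt by -2.96. Fau (-1.70), whose protein is made as a fusion with a ubiquitin-like domain, was also called lower in liver. Rpl36al, a paralog of Rpl36a, measured 351, 367, 363 and 395 CPM in liver and 408, 373, 417 and 328 CPM in uterus. Its groups overlapped and its difference was -0.05 (edgeR adjusted p = 0.749), where Rpl36a itself differed by -2.65.

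Genes that act on or around the ribosome had medians nearer 0 than the members' -2.43. Of all genes, 65.6% were lower in liver and 15.6% higher, with a median of -1.13. Of 19 translation factors and other mRNAs known to carry a TOP tract, 18 were lower in liver and 0 higher, with a median of -1.86. Npm1 (-2.84), a nucleolar chaperone, Pabpc1 (-2.73), the poly(A) binding protein, and Tpt1 (-2.51), a growth-related TOP mRNA, were lower by more than Eef2 (-1.10) and Eef1a1 (-1.07), the elongation factors. Of 35 ribosome biogenesis genes, 28 were lower and 1 higher, with a median of -1.04, close to that of all genes. Of 16 genes of mTOR signaling and its targets, 8 were lower and 1 higher, with a median of -0.43, above that of all genes. Proteins of the mitochondrial ribosome, a separate particle, showed 23 genes higher and 22 lower of 77. Their median of 0.04 also lay above that of all genes.

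No member was called for BPA in uterus by edgeR's quasi-likelihood test, which compared the 2 libraries given BPA with the 2 that were not, KRG being a term of the fit. Among all genes 1.27% were called higher and 2.04% lower. At an unadjusted p under 0.05 there were 20 members, against 13.1% of all genes. DESeq2 called 4 members lower, where it called 2.96% of all genes lower: Rps24 (-0.74, adjusted p = 0.0212), Rps10 (-0.70, 0.0220), Rps27 (-0.74, 0.0291) and Rpl5 (-0.71, 0.0386), in log2. Rps10 and Rpl5 bear on a count of 4 and are named for that. With 1 library per treatment, the fit keeps 2 residual degrees of freedom, and the estimates for BPA and KRG in a tissue come from the same 4 libraries.

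The estimates lay mostly below 0. Fitted values were below 0 for 74 of 79 members, where 45.7% of all genes were, and the median was -0.36 against 0.04. Both BPA uteri were lower than both others for 59 members, against 18.6% of all genes, and higher for 2, Rpl3l and Rpl28, against 27.2%. The library given both agents was the lowest of the 4 uteri for 59 of 79 members, and the control uterus for 0. The share over all genes was not taken for this ranking, so it cannot be read as particular to the members. Under TMM factors the members' median was -0.42 and under DESeq2 size factors -0.46, each with 75 members below 0. The share of all genes below 0 was not taken under these scalings. The members' median minus that of all genes was -0.40 under both.

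The pair without KRG and the pair with KRG share no library, and the medians lay below 0 in both. BPA against control had a median log2 ratio of -0.32 over the 79 members, against 0.03 over all genes, with 68 members lower, where 46.2% of all genes were. At least 1.5-fold lower were 4 members, against 7.15% of all genes. Both agents against KRG had a median of -0.45, against 0.06 over all genes, with 72 members lower, where 45.6% of all genes were. At least 1.5-fold lower were 19 members, against 13.2%. In both pairs 65 members (82.3%) were lower, against 26.4% of all genes. The size of the ratio in 1 pair said less about the other, with Pearson's r of 0.381 across members, a description over genes.

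**Figure D4:**
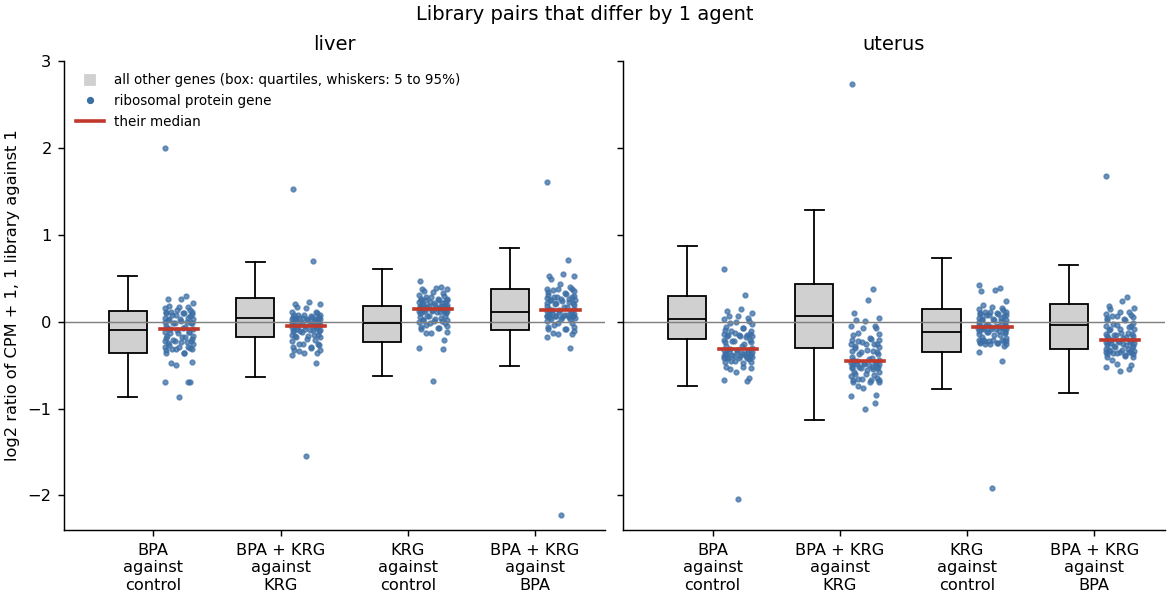
Log2 ratio of CPM + 1 between 2 libraries of a tissue that differ by 1 agent, for 79 ribosomal protein genes (points, red line at their median) and all other genes (boxes with quartiles, whiskers from 5 to 95%). In uterus the members' medians for BPA lie at -0.32 and -0.45, and in liver those for KRG lie at 0.15 and 0.13, beside -0.02 and 0.11 for all genes.

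Single members ranged around this common level. Rps24 measured 2141, 1472, 2072 and 1239 CPM in uterus, Rpl26 3194, 2202, 3364 and 1857 CPM, and Rpl35a 209, 159, 219 and 109 CPM. In each of the 3 both BPA libraries lay below both others. Their fitted changes were -0.64 ± 0.21, -0.70 ± 0.23 and -0.70 ± 0.23 (log2, SE), with edgeR adjusted p of 0.240, 0.248 and 0.249. Rps27 was 1.57-fold lower in BPA than in control (95% counting interval 1.49 to 1.66) and 1.54-fold lower in both than in KRG (1.46 to 1.62). These Clopper-Pearson intervals set 1 library against 1, so they cover counting error only and not the spread between libraries. Reads were not tied to single molecules, so even the counting error may be larger than they show.

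At the other end, Rplp0, the base of the stalk, measured 1387, 1456, 1157 and 1376 CPM in uterus, and Rpl28, a large subunit protein, 187, 187, 160 and 209 CPM. Neither was called (edgeR adjusted p = 0.825 and 0.776). Rpsa, known also as the laminin receptor, stood at 1064, 1110, 1140 and 854 CPM, with its lowest value in the library given both. Rplp2 stood at 2786, 2578, 2443 and 2620 CPM, with overlapping groups.

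The fitted changes were also set out by level and by gene structure. Among the 20 highest by mean CPM the median change was -0.47, and among the 20 lowest -0.21. The 27 members with a pyrimidine run of at least 7 at the start had a median of -0.43, the 31 with a window but no such run -0.35, and the 21 without a window -0.32. Members with a snoRNA gene inside and those without had medians of -0.36 and -0.35. None of these splits was tested.

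Other genes of the pathway were set beside the members. The 19 translation factors and TOP mRNAs had a median of -0.10 with 0 called, and 12 lay below 0. Tpt1 measured 11311, 5846, 9517 and 5296 CPM in uterus, with both BPA libraries below both others (-0.90 ± 0.21, log2, SE; edgeR adjusted p = 0.104). Gas5, a noncoding TOP transcript that hosts snoRNAs, measured 1069, 584, 729 and 437 CPM (-0.80, adjusted p = 0.107). Pabpc1 measured 524, 695, 406 and 822 CPM, with both BPA libraries above both others (0.71, adjusted p = 0.220). Mitochondrial ribosomal proteins had a median of -0.07 and ribosome biogenesis genes -0.10, with 0 of 77 and 0 of 35 called. The 7 measured rows with -ps in the symbol all lay below 0, with a median of -0.44 and 0 called, and the reads of these rows may overlap with those of the members.

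Markers of other cells differed between the same uteri. For BPA, 1.27% of all genes were called higher and 2.04% lower, and 45.7% were fitted below 0. Bladder lining markers (5 of 5 measured) summed to 192, 3592, 56.0 and 6800 CPM, and 4 of the 5 were called higher. Hepatocyte markers, given above, had 6 of 8 called lower, and 577 and 1186 CPM without BPA stood against 77.6 and 64.9 with it. Erythroid markers (6 of 7 measured) summed to 4997, 2264, 3738 and 814 CPM, with all 6 fitted below 0 and 0 called. Lymphoid and leukocyte markers (2 of 6 measured) summed to 89.2, 73.8, 74.7 and 44.8 CPM, with 1 of the 2 fitted below 0 and 0 called. Smooth muscle markers (6 of 6) summed to 2680, 3185, 3878 and 3893 CPM and fibroblast markers (6 of 6) to 4537, 6025, 4692 and 4679 CPM. In each of these lists 2 of 6 were fitted below 0 and 0 called. Uterus markers (8 of 8) summed to 1216, 925, 974.9 and 717 CPM, with 7 of the 8 fitted below 0 for BPA and 0 called. Neutrophil markers (5 of 6) summed to 329, 201, 1266 and 201 CPM and adipocyte markers (5 of 5) to 807, 620, 3201 and 843 CPM, with all 5 of each list fitted below 0 and 0 called. Proliferation markers (6 of 6) summed to 180, 257, 96.4 and 205 CPM, with 0 fitted below 0 and 0 called. Of all the lists in this paragraph no measured gene was at 0 in all uteri, and their part in the lower ribosomal protein levels was not tested.

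For BPA in liver the members' median lay close to that of all genes. No member was called by edgeR, with 0% of all genes called higher and 0% lower. At an unadjusted p under 0.05 there was 1 member, Rpl29, against 4.8% of all genes, and DESeq2 called none. The fitted change of Rpl29 (0.96, log2) rests on the liver given both agents, at 20.9 CPM beside 5.36 to 6.58 CPM in the others. The members' median was -0.07, against -0.03 for all genes, and 56 members lay below 0, where 54.7% of all genes did. Under DESeq2 size factors 41 members lay below 0, and the share of all genes was not taken there. Both BPA livers lay below both others for 18 members (19.3% of all genes) and above them for 7 (15.6%). Rpl11, which with Rpl5 binds the p53 regulator Mdm2, measured 93.1, 57.0, 97.5 and 77.6 CPM, and Rps3, known also for DNA repair activity, 261, 161, 264 and 232 CPM. In both genes the BPA livers were the 2 lowest and the BPA library without KRG the lower of them. Their fitted changes were -0.52 and -0.44.

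The difference of the BPA effect between tissues was tested as a contrast of the same fit, uterus minus liver. No member was called by edgeR, where 0.355% of all genes were called higher and 1.58% lower. At an unadjusted p under 0.05 there were 3 members, against 10.6% of all genes. DESeq2 called 1 higher, Rpl3l, where it called 1.09% of all genes higher. The members' median was -0.28, against 0.09 for all genes, with 70 of 79 below 0 where 43.6% of all genes were.

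KRG in liver was set out in the same way. Fitted values were above 0 for 71 of 79 members and below 0 for 8, where 40% of all genes were below 0. The median was 0.16, against 0.07 for all genes. No member was called by edgeR, with 0% of all genes called higher and 0% lower. At an unadjusted p under 0.05 there was 1 member, Rpl29, against 3.5%, and DESeq2 called none. The fitted change of Rpl29 (1.05, log2) rests, as for BPA, on the liver given both agents. Both KRG livers lay above both others for 38 members, against 18.4% of all genes, and below them for 1, Rplp1, against 9.79%. Rps24 measured 196, 160, 219 and 235 CPM and Rpl15, a large subunit protein, 50.3, 40.8, 57.8 and 59.2 CPM, with both KRG livers above the others. Their fitted changes were 0.36 and 0.37. Under TMM factors the median was 0.07, and 31 members lay below 0, where 52.3% of all genes did. Both KRG livers then lay above both others for 14 members (12.9% of all genes) and below them for 5 (15.5%). By column totals the members' median lay 0.09 above that of all genes, but it lay 0.17 above without the BPA or the combined liver and at -0.01 relative to all genes without the control or the KRG liver. The counts thus rest on the scaling. The excess over all genes was much the same under TMM factors (0.08) but rests on single libraries.

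KRG in uterus gave a median of -0.13, against -0.08 for all genes, with 62 members below 0, where 61.1% of all genes were. No member was called by edgeR, with 0% of all genes called higher and 0% lower. At an unadjusted p under 0.05 there were 0 members, against 4.45%, and DESeq2 called none. Both KRG uteri lay below both others for 10 members, among them Rplp0, Rps6, the ribosomal substrate of S6 kinase, and Rpl7a, against 21.5% of all genes, and above them for 0, against 8.11%. The contrast of the KRG effect between tissues called no member in edgeR (2 at an unadjusted p under 0.05, against 4.89% of all genes) and none in DESeq2, with 0% of all genes called higher and 0% lower. Its median was -0.28, against -0.15 for all genes, with 70 members below 0, where 62.7% of all genes were.

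Rplp1 had 1 library far apart from the rest in each tissue. With Rplp2 it forms the acidic dimers that hang from Rplp0 on the stalk. It measured 432, 1723, 412 and 369 CPM in liver and 7721, 1870, 2052 and 1850 CPM in uterus. The high library was BPA in liver and control in uterus, and the other 3 of each tissue lay close together. The counts were 6600, 22346, 6007 and 4561 in liver and 103332, 25661, 26660 and 27373 in uterus. BPA was thus 3.99-fold above control in liver (95% counting interval 3.88 to 4.10) and 4.13-fold below control in uterus (4.07 to 4.19), while both agents against KRG gave 1.12-fold lower in liver and 1.11-fold lower in uterus. Rplp0 and Rplp2 showed no such library.

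Because 1 library decides them, the fitted effects of BPA on Rplp1 have wide errors: 0.92 ± 0.65 in liver and -1.10 ± 0.64 in uterus (log2, SE). Their edgeR adjusted p was 0.970 in liver and 0.560 in uterus. The fitted effects of KRG rest on the same library of each tissue and were -1.15 ± 0.65 in liver and -0.96 ± 0.64 in uterus. The tissue difference of Rplp1 was -2.20 ± 0.69 (edgeR adjusted p = 0.0148). Without Rplp1 the members' summed CPM in uterus was 21.4% lower in BPA than in control and 27.5% lower in both than in KRG, where all members gave 24.8% and 27.2%. The annotated genes Gm10073, Gm11942 and Gm17511 share 50 bases with the 3′ end of Rplp1. The deposited counts hold 0 rows for them, so their levels cannot be compared with that of Rplp1.

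**Figure D5:**
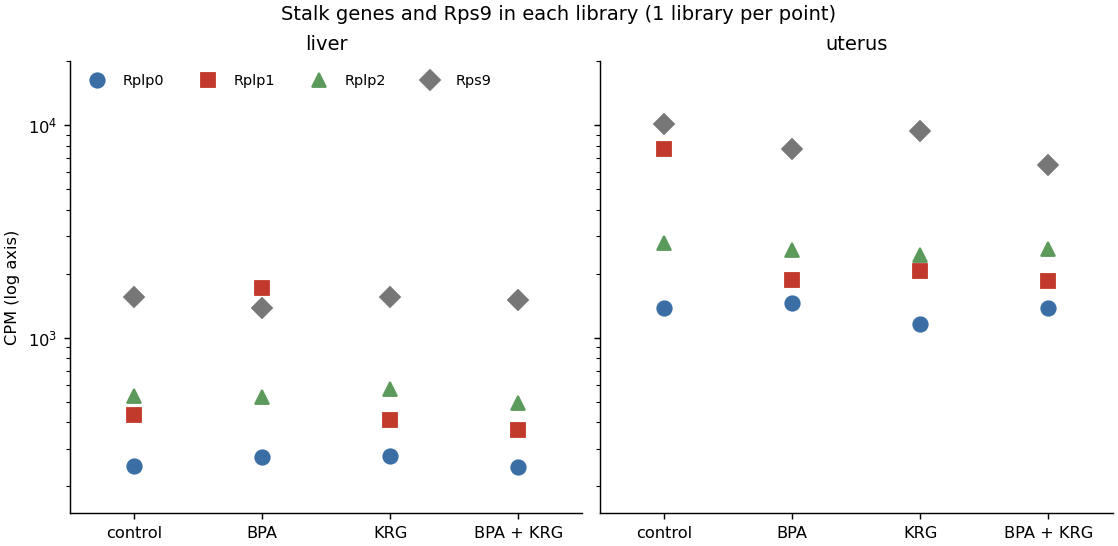
CPM (log axis, 1 library per point) of the stalk genes Rplp0, Rplp1 and Rplp2 and of Rps9 in each liver and uterus library. Rplp1 stands at 1723 CPM in the BPA liver against 369 to 432 in the others, and at 7721 CPM in the control uterus against 1850 to 2052 in the others.

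The same pair of libraries was searched for other genes of this pattern. Of 8687 genes whose mean reached 10 CPM, 15 were at least 3 times as high in the BPA liver as in every other liver, and 11 at least 3 times as high in the control uterus as in every other uterus. Only 2 genes met both conditions, Rplp1 and Gp2. Gp2, a protein of pancreatic secretory granules, measured 0, 10.5, 0.137 and 0 CPM in liver and 84.0, 4.01, 1.08 and 0.203 CPM in uterus. Acinar pancreas markers (9 of 9 measured) summed to 238, 1398, 151 and 180 CPM in liver and 16.8, 63.3, 24.6 and 109 CPM in uterus, where Clps was at 0. Their sum was highest in the BPA liver and lowest in the control uterus. For BPA in uterus, however, 7 of the 9 were fitted below 0, where 45.7% of all genes were, with a median of -3.26 (log2). Only Cela1 was called, and it was higher. The part of these markers in the Rplp1 values was not tested.

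A few other members stood out in 1 library. After the median of the members was taken from each library, the SD of log2 values over the 4 libraries had a median of 0.11 in liver and 0.15 in uterus. It was under 0.2 for 72 of 79 members in liver and for 64 in uterus. It passed 0.5 for Rplp1, Rpl29 and Rpl3l in liver and for Rplp1 and Rpl3l in uterus. Rpl29, a heparin-binding protein of the large subunit, measured 5.36, 6.17, 6.58 and 20.9 CPM in liver, with the library given both 3.18-fold above KRG (95% counting interval 2.51 to 4.06). Rpl30, a large subunit protein, measured 45.8, 28.0, 28.1 and 27.6 CPM, with the control alone high.

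Rpl3l had the highest fitted change with BPA in uterus, and its counts were few: 19, 3, 28 and 0 in liver and 5, 15, 0 and 84 in uterus. The change was 3.74 ± 1.45 (log2, SE; edgeR adjusted p = 0.340), which depends on the counts at 0. Skeletal muscle markers (7 of 7 measured) summed to 167, 2.78, 451 and 1.70 CPM in liver and 105, 206, 90.5 and 1586 CPM in uterus. In both tissues the libraries stood in the same order by marker sum and by Rpl3l count, and the part of muscle tissue in them was not tested.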

How the data were processed

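Raw counts per gene were deposited by the authors, 1 table per library. Bowtie2, edgeR and mm10 are named in the submitters' processing notes. The counter, strand and handling of multiple matches were not given in the sources used here. CPM are counts over column totals, Rn45s included. Genes whose mean reached 1 CPM were tested with edgeR 4.0.16 (quasi-likelihood; R 4.3.3) on the deposited counts: tissue over 8 libraries, and BPA and KRG within tissue in 1 additive fit. The Benjamini-Hochberg adjustment ran over all genes tested, at a threshold of 0.05. DESeq2 1.42.0 was an alternative. Library pairs are log2(CPM + 1) ratios, which understate the change of low genes. Scripts were tested on simulated data. Members and lists were chosen with earlier results of these data known. Genes named were the stalk genes and Rpsa, the 10 highest, the extremes of each comparison (5 for tissue, 3 for each agent), symbols ending in l and members under 10 CPM. Rpl5, Rpl7a, Rpl21, Rps6 and members given for their copies or windows were chosen after their values were seen. Coordinates of windows are RefSeq's on GRCm38.p6; gene models are from GENCODE M21. The result for a further ribosomal protein gene is not reported here.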

Additional observations from a re-analysis of the deposited data

Results flagged for a closer look

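In sets of 4 libraries of a tissue, a single library stood apart by Dixon's criterion (the gap to the nearest library against the whole range, at the 95% critical value) in 5 of 78 sets examined over the named members, the genes beside them and the summed CPM. Chance flags about 1 in 20 groups that were not picked by their values. Many named members, Rpl29 and Rpl30 among them, were picked for extreme fitted values in these same libraries. The 5 of 78 therefore cannot be set against that rate. Rplp1 stood at 1723 CPM in the BPA liver, with the others between 369 and 432, and at 7721 CPM in the control uterus, with the others between 1850 and 2052. Rps4l stood at 46.4 CPM in the liver given both agents, with the others between 28.1 and 29.5. Rpl29 stood at 20.9 CPM in the same liver, with the others between 5.36 and 6.58. Rpl30 stood at 45.8 CPM in the control liver, with the others between 27.6 and 28.1. No cause was tested for any of them.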

How the results depend on the processing

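Alternatives were TMM factors, DESeq2 size factors, totals without Rn45s, expression filters, DESeq2's test, leaving out each library, pseudocounts, treatment as a replicate block in the tissue fit and, chosen after seeing the data, leaving out Rplp1 or members with 5 or more near copies. The tissue median was -1.48, -1.43 and -1.43 under TMM, DESeq2 size factors and DESeq2's test, where Rps4l turned to 0.0196 and 0.0203 in the last 2, and uterus over liver in summed CPM was 2.92 and 2.81 under the scalings. With the replicate block 77 members stayed lower and 1 higher, where 8764 of 13790 genes were lower and 2067 higher. Leaving out a library gave 76 to 77 members lower, where 8723 to 9067 of all genes were, and medians of -2.50 to -2.38. Rpl29 lost its call without any of 5 libraries (control, BPA or KRG liver, control or BPA uterus). DESeq2 called 4 members lower for BPA in uterus (2.96% of all genes) and 1 higher for the contrast between tissues (1.09%). The BPA contrast between tissues had medians of -0.45 (DESeq2 size factors) and -0.44 (DESeq2's test), and the KRG contrast -0.083, -0.082 and -0.087 under TMM and these. KRG in uterus moved to -0.014 under TMM. Relative to all genes it ranged from -0.17 to 0.067 when a library was left out, turning above 0 without the BPA or the combined uterus. For KRG in liver that range was -0.01 (without the control or the KRG liver) to 0.17, and for BPA in liver -0.10 to 0.03 (above 0 without the KRG or the combined liver). In pairs, BPA against control in liver turned to 0.086 under DESeq2 size factors, both against BPA in liver to -0.056 and -0.087 under TMM and DESeq2 size factors, and both against KRG in uterus went to -0.60. Summed CPM of BPA over control in uterus was 0.729, 0.723 and 0.763 under TMM, DESeq2 size factors and totals without Rn45s, from 0.752, and of both over KRG 0.692, 0.654 and 0.733, from 0.728. The cause was not tested. Leaving out a library gave medians of -0.45 to -0.32 for BPA in uterus. DESeq2 called 16 genes higher and 26 lower for BPA in liver, 8 and 31 for KRG in liver, 50 and 4 for KRG in uterus and 29 and 2 for the KRG contrast, where edgeR called 0, and 276 and 408 for BPA in uterus (edgeR 175 and 282) and 150 and 329 for the BPA contrast (edgeR 49 and 218). The edgeR counts for BPA in uterus were 39 and 161 without the KRG uterus and 25 and 162 without the combined uterus. Depth limits Rpl3l, Rpl10l and Rpl39l.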
